A study of Mus musculus with 9 samples.

Results

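Genes of the presynaptic active zone and of vesicle priming were followed in sorted Merkel cells and basal keratinocytes. They were Bsn, Pclo, Rims1, Rims2, Rimbp2, Erc2, Unc13a, Unc13b, Cadps and Cadps2. The genes were chosen by symbol, and all 10 were found among the 49672 rows of the gene table, each by 1 Ensembl identifier. The study sorted epidermal cells of Sox2-GFP reporter mice on postnatal day 0 (P0), and no treatment is listed. Merkel cells were taken as GFP-positive, a gate that selects cells with an active Sox2 reporter whatever their type, and basal keratinocytes were GFP-negative and carried both SCA1 and CD49F. Each of the sample numbers 1 to 3 gave 1 Merkel library and 2 basal libraries, called first and second here, or 9 in all. What sets first and second basal libraries apart, and whether a number stands for an animal or a pool, the labels do not say, so p-values measure the spread between these samples only.

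The active zone is the patch of presynaptic membrane where vesicles dock, become ready to fuse and release their content when calcium enters. Bassoon and Piccolo (Bsn, Pclo) are its giant scaffold proteins, while RIM (Rims1, Rims2), RIM-binding protein (Rimbp2) and ELKS (Erc2) proteins tie vesicles and calcium channels to the release site. Munc13 proteins (Unc13a, Unc13b) and CAPS proteins (Cadps, Cadps2) prime vesicles for fusion, the latter chiefly known for dense-core vesicles. Merkel cells are touch receptor cells of the epidermis that hold dense-core vesicles and contact sensory nerve endings.

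Levels are TPM, a transcript abundance per length that allows genes to be compared within a library but keeps no read depth. In each library between 13012 and 13649 genes reached 1 TPM. Markers matched the sort labels: all 8 Merkel markers were called higher in Merkel libraries, their sum lying between 837 and 1119 TPM against 2.32 to 5.91 TPM in basal libraries. Of 6 basal keratinocyte markers 5 were called lower, yet their sum still reached 4539 to 5076 TPM in Merkel libraries, against 12826 to 17317 TPM in basal ones. Since these are bulk samples, fewer cells of a type and less RNA per cell cannot be told apart. The match of markers to labels was in part fixed by the sort. Sox2, whose reporter set the gate, is among the 8 Merkel markers, and Itga6, which encodes CD49F, among the 6 basal markers. Of the 3 sort genes, Sox2, Itga6 and Ly6a (SCA1), 1 was called higher and 2 lower, and the groups overlapped for Ly6a.

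For 8 of the 10 genes, all 3 Merkel libraries lay above all 6 basal libraries, where 9.55% of the 28451 genes above 0 in any library did so. The exceptions were Bsn and Unc13b, whose groups overlapped. Calls come from limma's test on log2(TPM + 1) over all genes, and need a log2 fold change of at least 1 in size together with a Benjamini-Hochberg adjusted p below 0.05. Without a filter on low values 5 of 10 were called higher in Merkel cells (Rims2, Rimbp2, Erc2, Unc13a and Cadps) and 0 lower, where 3.39% of all genes were called higher. The median log2 fold change of the 10 was 1.25, and that of all genes in the same fit -0.04.

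With the filter used for all fold changes below, at least 1 TPM in 3 of the 6 values (3 Merkel and 3 basal, each basal value the mean of the first and second library), 6 of the 10 were tested and Bsn, Pclo, Rims1 and Cadps2 were not. The same 5 were called, and 6.79% of all 13822 tested genes were called higher. A gene near 0 in basal keratinocytes enters this test only through its Merkel level, so the count of calls among tested genes supports nothing by itself. For the 4 genes under the filter the values come from the fit without it. Basal values of 0.01 to 0.09 TPM carry a single digit, as the table has 2 decimals.

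**Figure D1:**
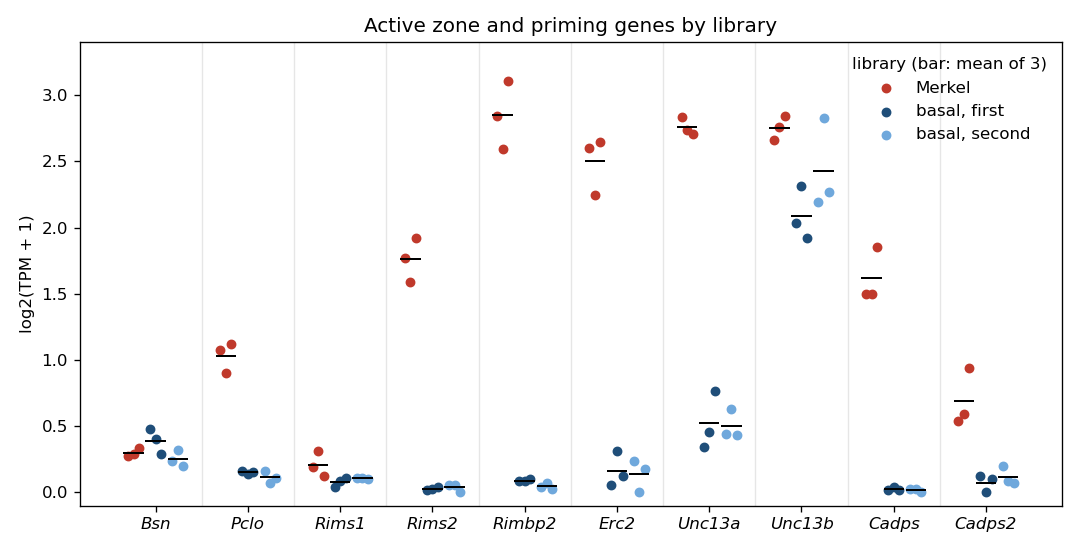
Level of each of the 10 genes in every library, as log2(TPM + 1), with Merkel libraries in red and first and second basal libraries in dark and light blue; black bars are means of 3. Rims2, Rimbp2, Erc2, Unc13a and Cadps stand clear of the basal libraries, and Bsn and Unc13b overlap with them.

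Promoter sequences are shown as a description, and whether the 5 genes called higher share any control was not tested. Unc13b, whose groups overlapped, stands beside its paralog Unc13a. RefSeq promoters (build GRCm38.p6, 250 bases before to 50 after the start site) were at hand for 9 of the 10 genes, with Rims2 the one left out. Those of Unc13a, Unc13b, Rimbp2, Erc2 and Cadps are printed 5′ to 3′ on the gene's own strand. Capitals mark matches, on either strand, to the E-box letters CAGCTG and CAGATG, which proneural factors such as Atoh1 bind, and to GGACAG and TTCAGCACC, the right and left parts of RE1, the element bound by the neuronal gene repressor REST. A match on the opposite strand appears in capitals as its reverse complement, and a sequence without capitals holds no match.
Unc13a lies at chr8:71671708-71672007 on the minus strand, Unc13b at chr4:43058703-43059002 on the plus strand, Rimbp2 at chr5:128953437-128953736 on the minus strand, Erc2 at chr14:27622157-27622456 on the plus strand and Cadps at chr14:12823030-12823329 on the minus strand.
Unc13a: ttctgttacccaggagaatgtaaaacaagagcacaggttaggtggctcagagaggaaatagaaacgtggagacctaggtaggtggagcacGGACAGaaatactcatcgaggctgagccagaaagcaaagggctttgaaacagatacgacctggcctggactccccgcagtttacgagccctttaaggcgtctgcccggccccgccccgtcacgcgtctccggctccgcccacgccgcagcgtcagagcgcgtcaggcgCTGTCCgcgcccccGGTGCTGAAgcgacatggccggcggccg
Unc13b: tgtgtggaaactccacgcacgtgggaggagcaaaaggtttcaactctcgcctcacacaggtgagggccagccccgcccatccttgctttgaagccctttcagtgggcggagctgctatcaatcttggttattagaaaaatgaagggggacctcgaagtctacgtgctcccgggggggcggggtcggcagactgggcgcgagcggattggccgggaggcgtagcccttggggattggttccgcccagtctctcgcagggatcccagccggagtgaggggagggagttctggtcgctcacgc
Rimbp2: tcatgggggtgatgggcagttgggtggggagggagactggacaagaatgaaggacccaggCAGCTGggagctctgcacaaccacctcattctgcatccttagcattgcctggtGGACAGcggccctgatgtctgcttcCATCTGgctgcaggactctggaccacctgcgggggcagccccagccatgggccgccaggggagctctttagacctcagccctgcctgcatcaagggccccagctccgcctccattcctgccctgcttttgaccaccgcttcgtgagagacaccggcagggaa
Erc2: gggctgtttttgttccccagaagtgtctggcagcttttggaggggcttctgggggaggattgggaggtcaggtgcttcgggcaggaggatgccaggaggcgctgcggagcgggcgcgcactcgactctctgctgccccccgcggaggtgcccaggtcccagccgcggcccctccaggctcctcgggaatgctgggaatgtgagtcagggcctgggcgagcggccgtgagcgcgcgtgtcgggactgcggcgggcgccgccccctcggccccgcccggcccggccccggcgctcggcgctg
Cadps: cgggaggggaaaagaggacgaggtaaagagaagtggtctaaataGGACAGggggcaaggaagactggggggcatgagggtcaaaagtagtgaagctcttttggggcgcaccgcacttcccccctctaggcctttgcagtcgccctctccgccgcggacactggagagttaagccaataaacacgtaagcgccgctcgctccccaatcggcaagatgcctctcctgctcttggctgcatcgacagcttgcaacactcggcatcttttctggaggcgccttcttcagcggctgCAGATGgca

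The Unc13a promoter held both parts of RE1 8 bases apart just after the start site, on the strand opposite to the printed one. TTCAGCACC was found in 0.371% of all 32851 promoters of the table and GGACAG in 22.2%, and both on 1 strand within 20 bases in 13 promoters, or 0.0396%. Besides Unc13a, GGACAG was found in Rimbp2 and Cadps, and in no other of the 9. CAGATG was in Rimbp2, Cadps and Pclo (17.2% of all promoters), and CAGCTG in Rimbp2 and Bsn (16.3%). Unc13b, Erc2, Rims1 and Cadps2 held none of these 4 motifs. None of the 9 had TAATTA (5.29% of all), ACAATG (12.6%) or TATAAA (13.6%), the letters of homeodomain, Sox and TATA sites, and 6 of 9 had the GC box GGGCGG (35.7% of all). These GC-rich windows were 58.0% to 79.7% G or C, against a median of 52.7%, and a match describes letters only.

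Of the giant scaffold genes, Pclo was apart from the basal libraries and Bsn was not. Pclo (chromosome 5 from 14514918 to 14863459, GRCm38, plus strand) was at 1.11, 0.87 and 1.17 TPM in Merkel libraries 1 to 3. In basal keratinocytes it was at 0.12, 0.10 and 0.11 TPM in the first and 0.12, 0.05 and 0.08 TPM in the second libraries. The groups did not overlap. Its log2 fold change was 0.90 ± 0.08 (SE, n = 3 against 3, limma adjusted p = 0.00098), just short of the limit of 1 for a call. At so low a level the pseudocount sets the size: with 0.1 in place of 1 the value was 2.55 ± 0.27, past the limit.

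Bsn (chromosome 9 from 108096022 to 108190384, minus strand) was at 0.21, 0.22 and 0.26 TPM in Merkel libraries. The first basal libraries had 0.39, 0.32 and 0.22 TPM and the second 0.18, 0.25 and 0.15 TPM, so that the Merkel values lay inside the basal range. The log2 fold change was -0.02 ± 0.05 (limma adjusted p = 0.77), and its sign turned under other scalings.

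Of the RIM genes Rims2 was called and Rims1 was not. Rims2 (chromosome 15 from 39198261 to 39684372, plus strand), whose protein binds Rab3 on vesicles and recruits Munc13, was at 2.42, 2.01 and 2.79 TPM in Merkel libraries. It was at 0.01, 0.02 and 0.03 TPM in the first basal libraries and 0.04, 0.04 and 0.00 TPM in the second. It was higher in Merkel cells by a log2 fold change of 1.73 ± 0.13 (limma adjusted p = 1.8e-05).

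Rims1 (chromosome 1 from 22286251 to 22805994, minus strand), the RIM gene best known from brain synapses, was at only 0.14, 0.24 and 0.09 TPM in Merkel libraries. Basal libraries held 0.03, 0.06 and 0.08 TPM (first) and 0.08, 0.08 and 0.07 TPM (second). The lowest Merkel and the highest basal value differed by the last printed decimal. Its log2 fold change was 0.11 ± 0.05 (limma adjusted p = 0.15), and it was not called.

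On the log2(TPM + 1) scale Rimbp2 and Erc2 had the largest changes of the 10. As a ratio of mean TPM, the change of Cadps came above that of Rimbp2, and those of Cadps and Rims2 above that of Erc2. Such ratios rest on basal means as low as 0.015 TPM (Cadps), from values printed to 2 decimals. Rimbp2 (chromosome 5 from 128757791 to 128953486, minus strand), the RIM-binding protein that links RIM to calcium channels, was at 6.19, 5.03 and 7.64 TPM in Merkel libraries. No basal library exceeded 0.07 TPM: the first had 0.06, 0.06 and 0.07 TPM and the second 0.03, 0.05 and 0.02 TPM. The log2 fold change was 2.78 ± 0.15 (limma adjusted p = 2.4e-06). In its promoter, printed above, both E-box types and GGACAG were present.

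Erc2 (chromosome 14 from 27622428 to 28478537, plus strand) encodes an ELKS scaffold that binds RIM and Bassoon. Merkel libraries had 5.07, 3.75 and 5.28 TPM, while the first basal libraries had 0.04, 0.24 and 0.09 TPM and the second 0.18, 0.00 and 0.13 TPM. The lowest Merkel value was far above the highest basal one, and the log2 fold change was 2.35 ± 0.14 (limma adjusted p = 4.5e-06).

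Of the Munc13 genes Unc13a was called and Unc13b was not. Unc13a (chromosome 8 from 71624417 to 71671757, minus strand), encoding Munc13-1, the main priming factor of brain synapses, was at 6.14, 5.66 and 5.54 TPM in Merkel libraries. The first basal libraries had 0.27, 0.37 and 0.70 TPM and the second 0.36, 0.55 and 0.35 TPM. Merkel and basal values were well apart, with a log2 fold change of 2.25 ± 0.13 (limma adjusted p = 2.6e-06). Its last 495 bases overlap the end of Colgalt1 on the opposite strand, a collagen-modifying enzyme gene at 12.9 to 16.8 TPM in Merkel and 20.4 to 27.5 TPM in basal libraries. The strand setting of the counting is not given in the sources used here, so reads in that stretch may be shared, and their part in the Unc13a level was not tested.

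Unc13b (chromosome 4 from 43058953 to 43264871, plus strand), encoding Munc13-2, was at 5.32, 5.79 and 6.18 TPM in Merkel libraries. Basal keratinocytes had 3.10, 3.98 and 2.78 TPM in the first libraries and 3.57, 6.11 and 3.81 TPM in the second. The second basal library of number 2 reached into the Merkel range, and the other 5 basal libraries lay below it. The log2 fold change was 0.50 ± 0.16 (limma adjusted p = 0.034), under the limit for a call. Its adjusted p was under 0.05 in 8 of 16 alternative settings and ranged from 0.0075 to 0.19 over them.

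Of the CAPS genes Cadps was called and Cadps2 was not. Cadps (chromosome 14 from 12372563 to 12823079, minus strand), encoding CAPS1, was at 1.83, 1.82 and 2.62 TPM in Merkel libraries. Basal libraries had 0.01, 0.03 and 0.01 TPM (first) and 0.02, 0.02 and 0.00 TPM (second), and the groups were far apart. The log2 fold change was 1.60 ± 0.14 (limma adjusted p = 4.1e-05).

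Cadps2 (chromosome 6 from 23262773 to 23839421, minus strand), encoding CAPS2, was at 0.45, 0.51 and 0.92 TPM in Merkel libraries. In basal keratinocytes it was at 0.09, 0.00 and 0.07 TPM in the first and 0.15, 0.06 and 0.05 TPM in the second libraries, below every Merkel value. The log2 fold change of 0.59 ± 0.11 (limma adjusted p = 0.012) was under the limit for a call. It became 2.09 ± 0.35 with a pseudocount of 0.1, where 7 of the 10 genes (Pclo and Cadps2 besides the 5) and 6.99% of all genes were called higher without a filter.

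**Figure D2:**
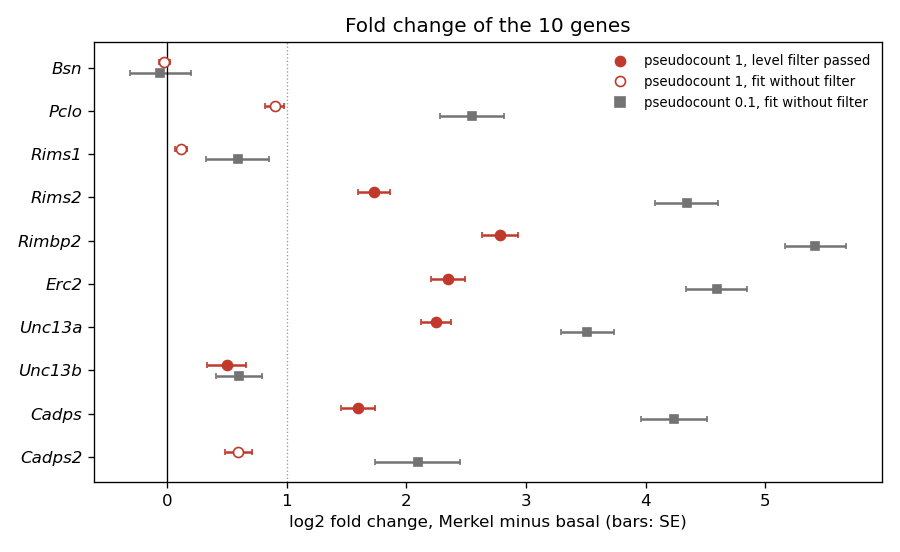
Log2 fold change of Merkel against basal values for each gene with its standard error (n = 3 against 3), with a pseudocount of 1 (red; open where the gene was under the level filter) and 0.1 (grey squares). The dotted line at 1 is the limit for a call; Pclo and Cadps2 lie below it in red and beyond it in grey, and Bsn stays near 0.

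Within Merkel cells the levels fell into an order. Rimbp2 (6.29 ± 1.31 TPM, mean ± SD, n = 3), Unc13a (5.78 ± 0.32) and Unc13b (5.76 ± 0.43) were at the top, and their ranges overlapped. Erc2 followed at 4.70 ± 0.83 TPM, with a range that overlapped that of Rimbp2 but not those of Unc13a and Unc13b. Then came Rims2 at 2.41 ± 0.39 and Cadps at 2.09 ± 0.46, which overlapped each other. Pclo at 1.05 ± 0.16 and Cadps2 at 0.63 ± 0.26 TPM also overlapped. Bsn and Rims1 came last at 0.23 ± 0.03 and 0.16 ± 0.08 TPM, and overlapped too. Merkel library 2 was the lowest of the 3 for Rimbp2, Erc2, Rims2, Cadps and Pclo, and the highest for Rims1, while Unc13a was lowest in library 3 and Unc13b in library 1. In that library small structural and mitochondrial RNA held 53.4% of TPM, against 45.7% and 43.1% in Merkel libraries 1 and 3 and 40.6% to 46.1% in basal libraries.

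In basal keratinocytes the same 10 genes were mostly Unc13b. It made up 66.8% to 84.7% of their summed TPM in basal libraries and 18.4% to 22.4% in Merkel libraries. The other 9 summed to 20.1, 23.6 and 26.3 TPM in the 3 Merkel libraries in rising order, and to between 0.85 and 1.38 TPM (median 1.13) in the 6 basal libraries.

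Paralogs were set against each other. For 6 pairs the difference of their log2(TPM + 1) values was compared between Merkel and basal cells, with an exact two-sided permutation test over 3 against 3 values. Each pair gave an exact permutation p = 0.10, the smallest that 3 against 3 allows, also after adjustment over the 6 pairs, so none can pass 0.05. In each pair all 3 Merkel differences lay above all 3 basal ones. The gene with the larger log2 fold change was named first in each pair, so the shared direction follows from that order and adds no support. The difference Rims2 minus Rims1 was 1.55 ± 0.26 (SD, n = 3) in Merkel and -0.06 ± 0.02 in basal cells. Rims2 made up 89.3% to 96.9% of the summed TPM of the pair in Merkel libraries. For Pclo minus Bsn the values were 0.73 ± 0.10 and -0.19 ± 0.07, with Pclo above Bsn in 3 of 3 Merkel and 0 of 6 basal libraries. Cadps minus Cadps2 was at 0.93 ± 0.03 and -0.07 ± 0.07, and Cadps was above Cadps2 in 3 of 3 Merkel and 1 of 6 basal libraries.

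For the RIM-binding proteins the order was reversed between the cell types. Rimbp2 lay above its paralog Tspoap1, which encodes RIM-binding protein 1, in 3 of 3 Merkel libraries and below it in 6 of 6 basal libraries. Tspoap1 was at 0.51, 0.51 and 0.90 TPM in Merkel libraries, at 2.15, 2.21 and 2.31 TPM in first and 3.18, 3.81 and 1.5 TPM in second basal libraries, and was called lower (log2 fold change -1.08 ± 0.16, limma adjusted p = 0.00097, where 5.27% of tested genes were called lower). That call rests on a value close to the limit: it was -0.99 with median-ratio scaling, -0.99 without basal replicate 2 and -0.98 with only the first basal libraries as control.

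In the ELKS and Munc13 families a paralog was present in both cell types. Erc1, the widely expressed ELKS gene, was at 9.68 ± 1.10 TPM in Merkel and 10.7 ± 0.41 TPM in basal cells (log2 fold change -0.12 ± 0.13, limma adjusted p = 0.49), and Erc2 stayed below it in all 9 libraries. Erc2 made up 30.6% to 34.0% of the pair in Merkel libraries and at most 2.61% in a basal library. Unc13a and Unc13b were about equal in Merkel cells, with Unc13a at 47.3% to 53.6% of the pair, against 8.01% to 20.1% in basal libraries. The Munc13 gene of blood cell granules, Unc13d, was at 3.42 ± 0.81 TPM in Merkel and 5.99 ± 0.78 TPM in basal cells (log2 fold change -0.67 ± 0.17, limma adjusted p = 0.011) and was not called. Unc13c, the cerebellar form, did not exceed 0.15 TPM in a Merkel library, and the short RIM genes Rims3 and Rims4 did not exceed 0.31 and 0.03 TPM there.

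**Figure D3:**
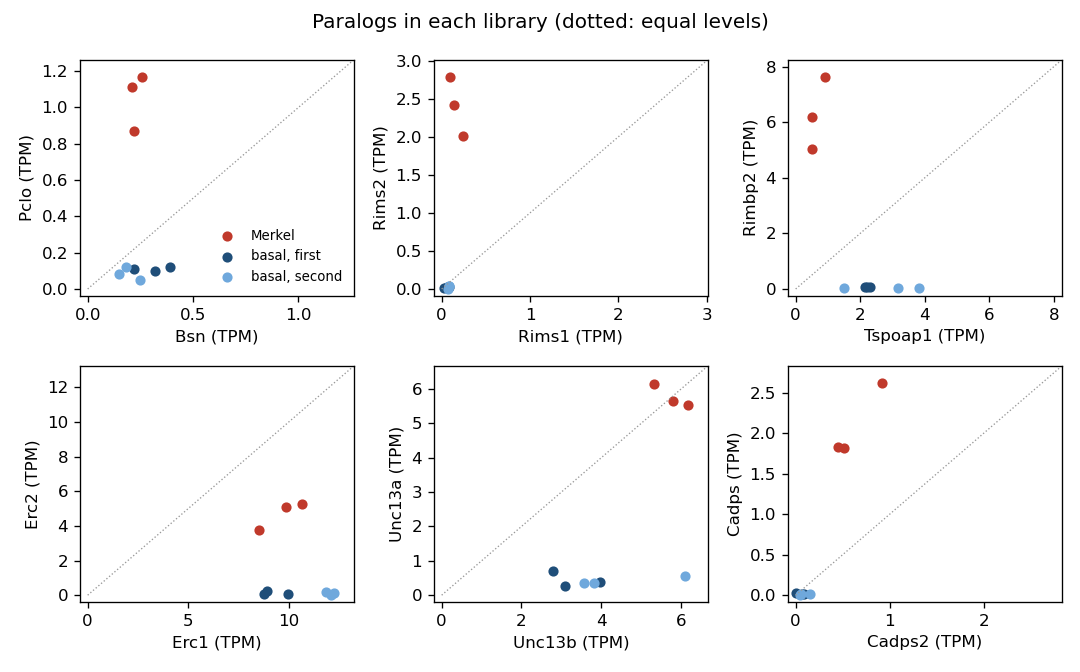
TPM of 6 pairs of paralogs, each point a library (Merkel red, first basal dark blue, second basal light blue) and the dotted line equal levels. Merkel libraries lie above the line for Pclo with Bsn, Rims2 with Rims1, Rimbp2 with Tspoap1 and Cadps with Cadps2, on it for Unc13a with Unc13b, and below it for Erc2 with Erc1.

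Other genes of the same machinery were counted on a list of 26. Of these 15 were tested, 3 were called higher and 1 (Tspoap1) lower, where 6.79% of all tested genes were called higher and 5.27% lower. In this and the following lists, too, a gene near 0 in basal cells was tested only through its Merkel level. Without a filter the counts were 3 and 1 of the 26, where 3.39% of all genes were called higher. The median log2 fold change of all 26 in that fit was 0.04. Among those called higher were Rab3b (42.9 ± 5.64 against 0.37 ± 0.10 TPM, log2 fold change 5.02 ± 0.14) and Rab3c (14.4 ± 1.2 against 0.03 ± 0.01 TPM, 3.90 ± 0.12), vesicle GTPases of the family that RIM binds. For 7 of the 26 all Merkel libraries lay above all basal libraries and for 4 below, where 16.8% of all genes lay below.

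Of 18 fusion machinery genes 13 were tested, 9 were called higher and 0 lower, where 6.79% and 5.27% of all tested genes were. Without a filter 9 of 18 were called higher, where 3.39% of all genes were, with a median log2 fold change of 0.91. Those with the smallest adjusted p were Sv2c, a vesicle glycoprotein gene (3.62 ± 0.14), the calcium sensors Syt7 (4.05 ± 0.19) and Syt1 (3.68 ± 0.18), and Cplx1 (3.90 ± 0.20), a clamp of SNARE complexes. Without a filter 5 of 10 calcium channel subunits were called higher (median of all 10 0.96). With the filter 8 were tested, 5 were called higher and 0 lower. They were Cacna2d1 (4.09 ± 0.15), Cacna1a (1.63 ± 0.34), Cacna1b (1.40 ± 0.17), Cacna2d2 (1.13 ± 0.18) and Cacna1e (1.10 ± 0.13), of which Cacna1a and Cacna1b form the channels that RIM and RIM-binding proteins tether at synapses.

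First and second basal libraries were compared to see whether the control itself varied in these genes. None of the 10 was called: 0 of 1 tested in limma's fit with the filter (Unc13b, a second minus first log2 difference of 0.34 ± 0.20, adjusted p = 0.41), where 4.35% of genes were called in either direction. Without the filter 0 of 10 were called, with 1 (Rimbp2) at an unadjusted p under 0.05, where 0.907% of genes were called. Except for Unc13b, none of the 10 exceeded 0.70 TPM in a basal library, so none of these could reach a log2 difference of 1. For them the absence of a call was fixed and shows nothing about variation in the control. The largest difference in size was again that of Unc13b. The 5 called genes (Rims2, Rimbp2, Erc2, Unc13a, Cadps) were also called with either kind of basal library alone as control.

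Markers of other cells that the GFP-positive sort could hold differed in how they moved between Merkel and basal libraries. Of all tested genes 6.79% were called higher and 5.27% lower. All 7 melanocyte markers were tested, and 6 were called higher in Merkel libraries. Their sums were 159 to 224 TPM there, against 16.6 to 36.4 TPM in the first and 112 to 162 TPM in the second basal libraries. The 9 active zone and priming genes other than Unc13b summed to 1.02 to 1.38 TPM in first and 0.85 to 1.16 TPM in second basal libraries. The relation of these sums to the melanocyte markers was not tested. Of 10 dermal papilla and fibroblast markers 9 were tested and 7 were called higher. For 7 of the 10 all Merkel libraries lay above all basal libraries, where 9.55% of all genes did so. Their sum did not follow these counts (289 to 457 TPM in Merkel, 387 to 904 TPM in first and 262 to 360 TPM in second basal libraries). Of 9 Schwann cell markers 5 were tested and 1 was called higher (44.0 to 59.4, 34.0 to 41.6 and 43.3 to 54.2 TPM). Of 9 Langerhans and T cell markers 6 were tested, and 3 were called lower and 0 higher. Their sums were 48.4 to 138 TPM in Merkel, 586 to 1011 TPM in first and 53.2 to 253 TPM in second basal libraries. The part of these cells in the result was not tested.

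Of 10 sensory neuron markers 2 were tested, Avil and Tubb3, and these 2 were called higher, where 6.79% of all tested genes were. The other 8 were under the filter and so were not tested. Without a filter 2 of 10 were called higher, where 3.39% of all genes were. Avil and Tubb3 made up nearly all of the list's sum of 110 to 154 TPM in Merkel libraries. In basal libraries the sum was 1.74 to 2.84 TPM. The other 8, among them the neurofilament genes Nefl, Nefm and Nefh and the sodium channel genes Scn9a and Scn10a, had sums between 0.61 and 0.85 TPM in Merkel libraries and between 0.03 and 0.24 TPM in basal ones. None of the 8 exceeded 0.43 TPM in a library, and Scn10a was listed at 0 in all 3 Merkel libraries. Low as they were, for 4 of the 8 all Merkel libraries lay above all basal libraries, where 9.55% of all genes did so.

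**Figure D4:**
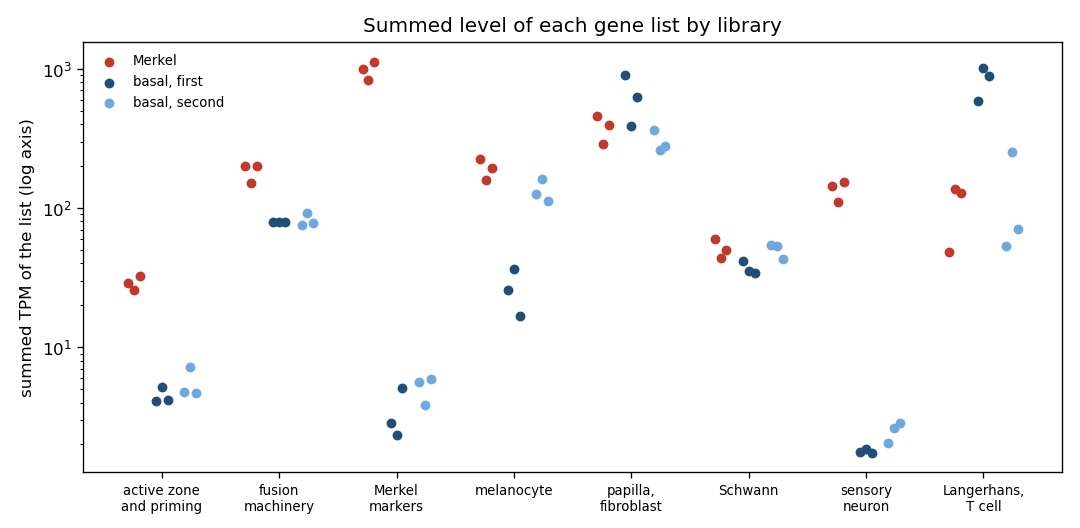
Summed TPM of each gene list in every library on a log axis, with Merkel libraries in red and first and second basal libraries in dark and light blue. The 10 active zone and priming genes sum to between 25.9 and 32.5 TPM in Merkel libraries and between 4.12 and 7.21 TPM in basal ones. Melanocyte markers are nearly as high in second basal as in Merkel libraries.

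The genes with the most similar pattern were found by Pearson's r of log2(TPM + 1) over the 9 libraries, among 12146 tested protein-coding genes. For Rims2 the closest gene was Rimbp2 (r = 0.9997), another of the 10, followed by the calcium pump gene Atp2b3. Rimbp2 in turn was closest to Rims2, then to Chrna5 and Grxcr2. For Unc13a the closest were Insrr, Alpl and Isl1, for Erc2 Cdh10, Gc and Cldn9, and for Cadps Acss3, Cntnap3 and Chrna10. These values describe mainly the gap between the cell types, since the 9 libraries form 2 groups and between 581 and 687 genes reached r over 0.95 with each of the 5 genes.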

How the data were processed

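Total RNA libraries (9) came from a stranded kit with paired reads of 125 bases each, per the labels' protocols. Trimmomatic, STAR and RSEM were used on mm10, per the submitters' processing notes; the annotation and strand setting were not given in the sources used here. Genes carry TPM as deposited by the authors, which keep no depth, so no counting interval is given.

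Identifiers were matched without version to GENCODE M21 (GRCm38, the build of mm10): 49326 of 49672 rows had a symbol. For 6 of the 10 genes the version was the same, and for 4 (Rims1, Rims2, Erc2, Cadps) M21 has another version. Promoters are from RefSeq. The 10 genes and all lists were chosen with earlier results of these data known, and the rule named all 10, called list members and paralogs. The values of 1 called list member are not reported here.

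limma 3.58.1 in R 4.3.3 was fitted with a variance trend to log2(TPM + 1), two-sided, with Benjamini-Hochberg adjustment over all genes tested, on 3 Merkel and 3 basal values, each basal value the mean of both libraries of a number. The fit was tested on simulated data. Tables and exact tests used Python 3.11.15, pandas 2.3.3 and scipy 1.17.1. Same-numbered Merkel and basal values deviated together (r = 0.39, 0.36 and 0.20 over genes), so sample numbers pair the samples; the fit with the number as a block is an alternative. Others were the pseudocount, filter, scaling, choice of basal libraries and leaving out each Merkel or basal value in turn, which kept the genes tested. Fits without a filter under each setting were added after the data were seen.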

Additional observations from a re-analysis of the deposited data

Results flagged for a closer look

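The Merkel cell effect on Ppfia4, a liprin-alpha gene of the active zone list, depended on which basal libraries it was set against, because the 2 kinds of basal library differed by -1.76 ± 0.23 (second minus first, log2, limma adjusted p = 0.0058). Ppfia4 was at 5.72, 5.54 and 7.96 TPM in first and 0.85, 1.94 and 0.85 TPM in second basal libraries, and at 1.53, 1.54 and 2.08 TPM in Merkel libraries. Its log2 fold change was -0.56 on averaged basal values, -1.44 against the first and 0.33 against the second. Cacnb2, an auxiliary calcium channel subunit gene, differed between them in the same direction (-1.05 ± 0.21, adjusted p = 0.027), with Merkel values of 0.22, 0.40 and 0.36 TPM against 2.28 to 2.51 TPM in first and 0.27 to 1.19 TPM in second basal libraries. Both genes were named after their values were seen. Of the 10 active zone and priming genes 1 (Unc13b) was tested in that fit and was not called. Without the filter on low values none of the 10 was called, though only Unc13b was high enough in basal libraries for a call. Neither Ppfia4 (limma adjusted p = 0.0502) nor Cacnb2 (0.104) was called in that fit.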

How the results depend on the processing

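The 5 calls among the 10 genes held in 15 of 16 settings, including the fit with the sample number as a block (5 called); with a filter at 5 TPM 2 were called, since fewer genes were tested. Without small structural and mitochondrial RNA Pclo was called too (1.35). The number of genes whose groups did not overlap was 7 to 9. Over all genes 1667 were called, and 935 with the filter at 5 TPM, which left 1 calcium channel subunit called higher and 0 genes of the active zone list called lower. The latter count was also 0 with median-ratio scaling, and 0 to 1 leaving out a Merkel or basal value. Of the calcium channel subunits 1 was called lower after removal of small RNA and against the first basal libraries. Median-ratio scaling moved the median log2 fold change of all genes from -0.15 to 0.02 and the share of calls that were higher from 56.3% to 70.5%. The sign turned for some values. Bsn was at 0.021 with median-ratio scaling, 0.011 with quantile normalization and 0.044 against the second basal libraries. Erc1 was at 0.049 with median-ratio scaling, 0.043 with quantile normalization and 0.059 against the first basal libraries. Ppfia4 (-0.56 on averaged basal values) was at 0.33 against the second. Leaving out 1 basal library, the second minus first difference ran from -0.0002 to 0.028 for Rims2, -0.11 to 0.10 for Unc13a, -0.079 to 0.048 for Erc2 and -0.0095 to 0.0048 for Cadps. The block changed no call among the 10 genes. The depth is unknown, which leaves the lowest levels (Bsn, Rims1 and most basal values) the least certain.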
